A study of Arabidopsis thaliana with 24 samples.

Results

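The genes described here form a set of 140 probe sets, out of 22746 non-control probe sets on the Arabidopsis ATH1 GeneChip, that stood high on 1 array of pap1-D and 1 array of WOX1-1 relative to the other arrays of the same genotypes. They were chosen by their measured values. Signals were put on a log2 scale after adding an offset, the overall median signal of 170.4 divided by 4. On this scale a member lay at least 0.8 above the mean of arrays 2 and 3 of its genotype on array 1 of pap1-D, met the same condition on array 1 of WOX1-1, and had a signal above 170 on both of these arrays. The working name of the set was fast stress genes. Of 10954 probe sets above 170 on both arrays, 179 met the difference on pap1-D array 1, 200 met it on WOX1-1 array 1 and 141 met both. ORA47 was 1 of these and was left out by choice, which left 140. No probe set was lower by the same margin on both arrays, among those whose other 4 arrays averaged above 170.

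The study measured total RNA of shoots, harvested at 3 weeks of age, from plants that overaccumulate or lack flavonoids, phenolic compounds that include flavonols and anthocyanins. There are 8 genotypes with 3 arrays each, all homozygous lines or the wild type: pap1-D overexpresses PAP1, a MYB regulator of anthocyanin synthesis, and WOX1-1 and WOX1-2 were bred by crossing pap1-D and MYB12OX. In MYB12OX the flavonol regulator MYB12 is overexpressed, and MYB12OX/tt4 and pap1-D/tt4 are crosses of these overexpressors with tt4, a mutant of chalcone synthase (CHS), the enzyme that opens the flavonoid pathway. The labels place the overexpressors and tt4 in the Col-0 background, and Col-0 is the wild type. The labels do not give the promoters of the overexpressed genes, nor whether 3 arrays stand for 3 plants, pools or harvests, so p-values measure the spread between arrays, which may be technical. All plants shared growth on sucrose agar (1%) in long days, with 16 h light and 8 h dark at 22 °C. The same growth text mentions a drought experiment, which no label ties to any array.

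Plants answer touch, wounding, cold or a microbial signal within minutes through a rise of calcium in the cytosol. Calmodulin-like proteins bind this calcium, and a first wave of transcripts follows that encodes zinc finger, WRKY and AP2/ERF transcription factors and U-box ubiquitin ligases. Many of these transcripts are short-lived, and leaves express them at a low level at rest.

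Of the 140 members, 68 had 1 gene in the platform annotation, 2 had several and 70 had none, so the functions below describe fewer than the whole set. The RefSeq table of assembly TAIR10.1 matched 66 of the 68, and 9 members have a symbol other than their locus code. The named members that matched lay on all 5 chromosomes, with 20, 10, 11, 11 and 14 on chromosomes 1 to 5. Of all members, 3 were of a probe set kind that may read copies of a gene. The stress label was not tested, since the gene lists were chosen with earlier results of these data known. Of 32 listed genes measured by name, 6 are members, all in lists of fast stress genes. Of all 22746 non-control probe sets, 140 are members. The lists of jasmonate, ethylene synthesis and heat shock genes, and of NAC, MYB and heat shock factors, had no gene that could be measured by name. In the kinase and phosphatase list 1 of 13 genes was measured. It had differences of 0.33 on pap1-D array 1 and 0.27 on WOX1-1 array 1 and is not a member.

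The members just past the threshold were AT5G58120, a TIR-NBS-LRR gene with differences of 0.80 on pap1-D array 1 and 1.13 on WOX1-1 array 1, AT5G15190 with 1.11 and 0.81, and SRC2, a C2 domain gene, with 0.82 and 1.15. Just outside it were GTR1, a glucosinolate transporter gene, with 0.799 and 1.12, LTI30, a dehydrin gene, with 0.794 and 0.942, and AT1G59910 with 0.803 and 0.782. ORA47, an AP2/ERF factor linked to jasmonate synthesis, had signals of 1525 on pap1-D array 1 against 381 and 241 on arrays 2 and 3, and 539 on WOX1-1 array 1 against 281 and 268. Its Col-0 signals were 510, 539 and 364, so its WOX1-1 array 1 signal was level with the highest Col-0 array. GH3.3 and PDF1.2, which the rule also names as left out, did not meet it.

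**Figure D1:**
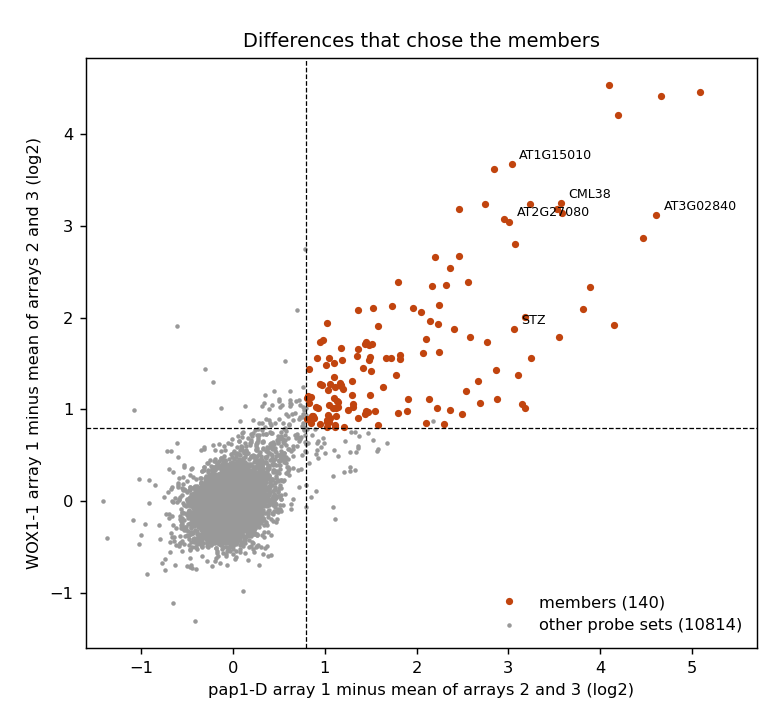
Each point is 1 probe set with a signal above 170 on both arrays numbered 1. The x axis is pap1-D array 1 minus the mean of arrays 2 and 3, the y axis the same for WOX1-1, both in log2 units. The 140 members lie in the upper right beyond the dashed lines at 0.8, and the 1 grey point there is ORA47.

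Over the 140 members, the difference on pap1-D array 1 had a median of 1.52 (range 0.80 to 5.09) and that on WOX1-1 array 1 a median of 1.42 (range 0.81 to 4.53). The difference was at least 2 in 54 members on pap1-D array 1, in 33 on WOX1-1 array 1 and in 28 on both. The pap1-D difference was the larger in 77 members. These values chose the members and carry no test.

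Calcium sensors stood among the members with the largest differences. CML38, a calmodulin-like gene, had signals of 4853 on pap1-D array 1 and 317 and 429 on arrays 2 and 3. In WOX1-1 the signals were 3502 on array 1 and 364 and 300 on arrays 2 and 3. The other 18 arrays ran from 257 to 1667 with a median of 377, and the highest of these were MYB12OX array 1 at 1667 and WOX1-2 array 1 at 1171. The remaining 16 arrays lay at or below 564, and the 4 high arrays were all numbered 1. AT3G01830, a gene of the same calmodulin-like family, had 790 on pap1-D array 1 against 25.1 and 34.7 on arrays 2 and 3, and 565 on WOX1-1 array 1 against 24.8 and 24.1. On the other 18 arrays it lay between 18.7 and 79.1, at levels where the table, which has no detection call, cannot separate signal from background.

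The calcium and touch list held 6 measured genes, of which CML38 was the only member. CML37 also peaked, with 264 on pap1-D array 1 and 77 on WOX1-1 array 1, but it missed the signal minimum on WOX1-1. CML23 had a difference of 0.83 on pap1-D array 1 and 0.35 on WOX1-1 array 1. CML39, CML41 and CML42 had differences between -0.37 and 0.04 on these arrays. The peak thus covered part of the family as this array measures it.

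Some transcription factor genes of the fast response were also high. By name, 1 of 8 zinc finger, 3 of 15 WRKY and 2 of 21 AP2/ERF genes of the lists were measured. Of these only STZ and WRKY53 are members. STZ, a zinc finger repressor also known as ZAT10, had 4827 on pap1-D array 1 against 535 and 546 on arrays 2 and 3, and 2382 on WOX1-1 array 1 against 559 and 687. The other 18 arrays ran from 441 to 1625 with a median of 665. Both arrays numbered 1 lay above all of them, and MYB12OX array 1 (1625) and WOX1-2 array 1 (1271) came next. WRKY53, a WRKY factor of defence and leaf senescence, had 672 on pap1-D array 1 against 245 and 165, and 262 on WOX1-1 array 1 against 88.6 and 139. Here only pap1-D array 1 stood out, since the other 18 arrays reached 419 and had a median of 295. AT1G22810, an AP2/ERF gene, had 235 on pap1-D array 1 against 48.2 and 25.9, and 182 on WOX1-1 array 1 against 28.9 and 40.1, with at most 63.0 on the other 18 arrays.

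Among listed factors that are not members, the AP2/ERF genes AT1G33760 (ERF022) and AT1G19210 (ERF017) had differences of 3.19 and 2.35 on pap1-D array 1 and 2.09 and 0.75 on WOX1-1 array 1. Their WOX1-1 array 1 signals of 167 and 79 lay under the minimum. WRKY22 had differences of 0.61 and 0.35, and WRKY6 of -0.67 and -0.16. AT2G22880, a member that encodes a VQ motif protein, a class that binds WRKY factors, had 725 on pap1-D array 1 against 39.1 and 38.9, and 529 on WOX1-1 array 1 against 29.9 and 7.79. Its next highest array was pap1-D/tt4 array 1 at 329.

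U-box ubiquitin ligase genes formed a further group. PUB22 and PUB23, paired ligases that dampen immune signalling and drought responses, are both members. PUB23 had 937 on pap1-D array 1 against 145 and 83.8, and 397 on WOX1-1 array 1 against 110 and 164, with 56.4 to 217 on the other 18 arrays. PUB22 had 480 on pap1-D array 1 against 66.3 and 93.0, and 178 on WOX1-1 array 1 against 80.0 and 79.4, with 13.5 to 138 on the other 18 arrays. For both genes the order of the highest 3 arrays was pap1-D array 1, WOX1-1 array 1 and MYB12OX array 1. PUB24, the third gene of this immune trio, had smaller differences of 0.90 and 0.51, and PUB26 had 0.13 and -0.15. Outside the list, PUB19 had 310 on pap1-D array 1 against 103 and 87.8 and 189 on WOX1-1 array 1 against 70.6 and 93.6. AT3G02840, an armadillo-repeat gene, had 1716 on pap1-D array 1 against 29.9 and 29.2, and 671 on WOX1-1 array 1 against 47.0 and 33.3. Its other 18 arrays lay between 11.8 and 208, so the 2 peaks stood apart from all 22 other arrays.

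**Figure D2:**
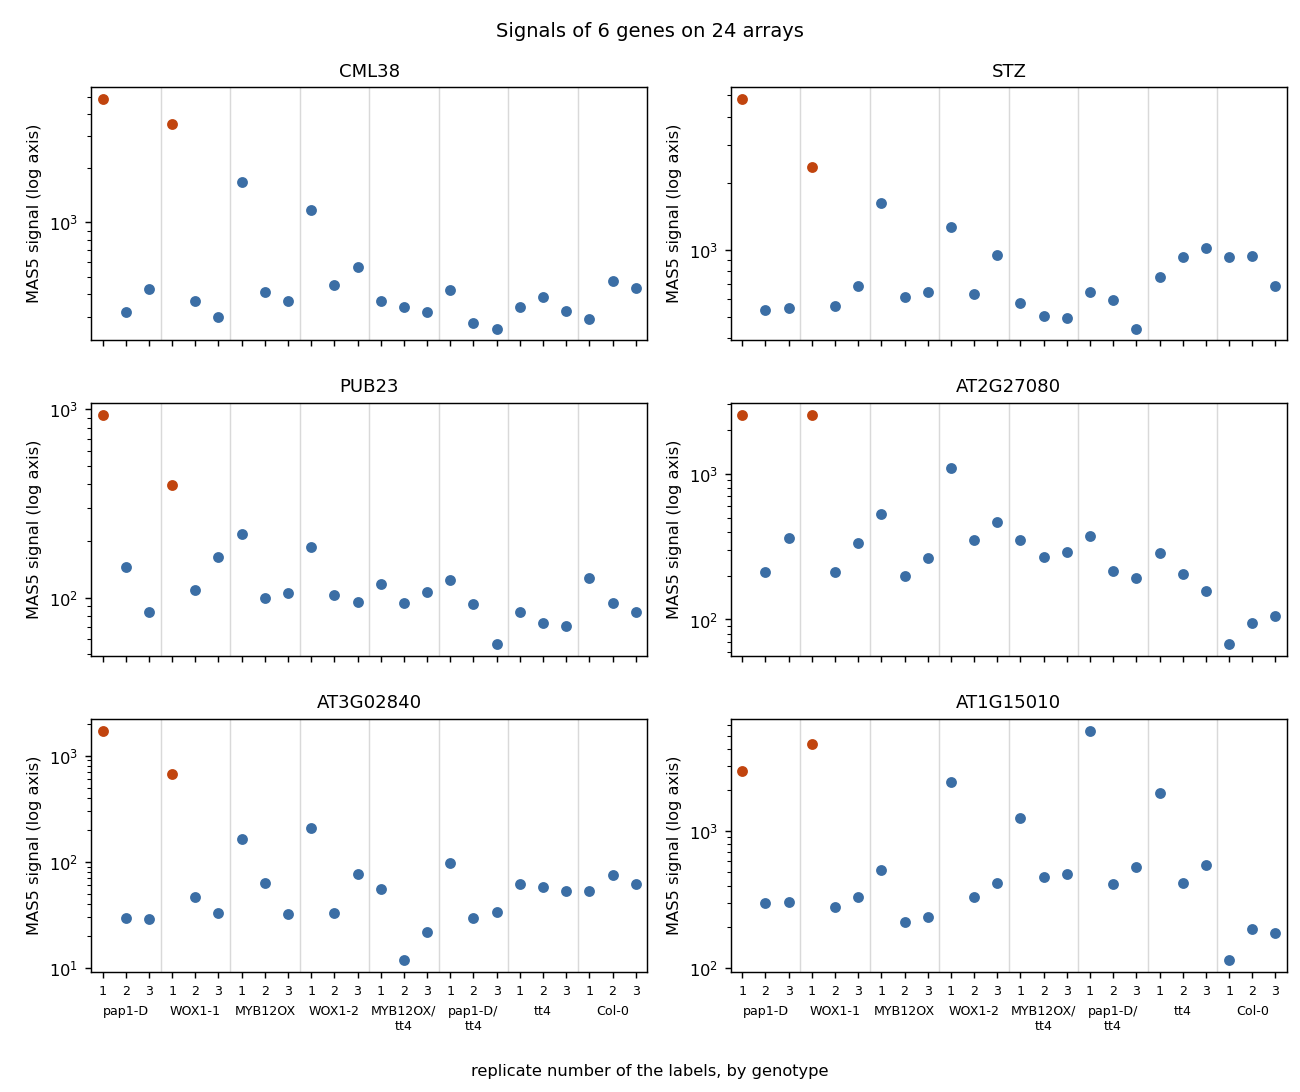
MAS5 signal (log axis) of CML38, STZ, PUB23, AT2G27080, AT3G02840 and AT1G15010 on each of 24 arrays, 1 point per array, grouped by genotype and replicate number. Red points are array 1 of pap1-D and of WOX1-1, which lie highest in every panel except AT1G15010, where pap1-D/tt4 array 1 is highest at 5444.

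In the membrane and defence list 1 of 13 genes was measured by name, and it is a member. The other genes given with it here belong to no list. AT2G27080, an NHL13 gene of the NDR1/HIN1-like family of membrane proteins, had 2541 on pap1-D array 1 against 211 and 364, and 2514 on WOX1-1 array 1 against 212 and 335. The other 18 arrays ran from 67.3 to 1088 with a median of 265. AT5G52050, the efflux carrier gene DTX50, had 1304 on pap1-D array 1 against 71.5 and 69.0, and 698 on WOX1-1 array 1 against 21.2 and 68.0, and it never exceeded 141 elsewhere. AT1G61890, a further carrier gene of the same MATE class, had 2747 on pap1-D array 1 against 753 and 763, and 3575 on WOX1-1 array 1 against 682 and 619. AT2G17660, related to the immune regulator RIN4, had 564 on pap1-D array 1 against 46.0 and 26.8, and 523 on WOX1-1 array 1 against 3.14 and 56.8. In all 4 genes both arrays numbered 1 lay above the highest of the other 18 arrays.

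A run of neighbouring genes on chromosome 4 stood high together. AT4G27652, AT4G27654 and AT4G27657 lie next to one another in the RefSeq annotation, with 0 coding genes between AT4G27652 and AT4G27654 and 0 between AT4G27654 and AT4G27657. On pap1-D array 1 their signals were 2014, 1822 and 821, against at most 130, 57.1 and 59.6 on arrays 2 and 3. On WOX1-1 array 1 they were 650, 797 and 193, against at most 151, 101 and 70.8. Each of the genes was thus higher on pap1-D array 1 than on WOX1-1 array 1. AT4G35985, annotated as senescence or dehydration associated, and AT4G36010, a thaumatin-like gene, have 2 coding genes between them. Their differences were 1.74 and 1.02 on pap1-D array 1 and 2.13 and 1.94 on WOX1-1 array 1.

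Further members include genes of the cell wall and of lipid metabolism and genes of less defined function. AT1G15010, a gene without a firm function here, had 2780 on pap1-D array 1 against 300 and 302, and 4370 on WOX1-1 array 1 against 280 and 331. It was highest of all on pap1-D/tt4 array 1 at 5444, against 408 and 547 on arrays 2 and 3 of pap1-D/tt4. WOX1-2 array 1 at 2303, tt4 array 1 at 1919 and MYB12OX/tt4 array 1 at 1242 also stood above arrays 2 and 3 of their genotypes, while Col-0 array 1 had 113 against 193 and 181. XTH18, a xyloglucan endotransglucosylase/hydrolase gene of the cell wall, had 692 on pap1-D array 1 against 142 and 87.5, and 539 on WOX1-1 array 1 against 68.0 and 115. AT5G62360, similar to pectin methylesterase inhibitors, had 2890 on pap1-D array 1 against 1687 and 1530, and 5226 on WOX1-1 array 1 against 1962 and 1832. OPCL1, a CoA ligase of jasmonate synthesis, had 1551 on pap1-D array 1 against 786 and 625, and 1366 on WOX1-1 array 1 against 608 and 422. These values span a wide range of differences, from 0.83 to 3.67.

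The 12 named members with the largest smaller difference are, in falling order, CML38, AT2G22880, AT3G01830, AT5G52050, AT3G02840, AT1G15010, AT2G27080, AT2G17660, AT4G27654, AT1G56660, AT4G29780 and AT5G65300. AT1G56660 had 549 on pap1-D array 1 against 69.5 and 75.1, and 673 on WOX1-1 array 1 against 59.6 and 105. AT5G65300 had 570 on pap1-D array 1 against 97.7 and 89.4, and 563 on WOX1-1 array 1 against 76.9 and 76.3. AT4G29780, a gene related to transposase-derived nucleases, had 4701 on pap1-D array 1 against 265 and 294, and 1686 on WOX1-1 array 1 against 240 and 377. The 4 members with the largest smaller difference have no gene name in the annotation. The first of them had 4103 on pap1-D array 1 against 84.6 and 74.7, and 2834 on WOX1-1 array 1 against 68.8 and 110, and at most 255 elsewhere.

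The 24 arrays were alike in scale. Each had a trimmed mean of 500.0 after trimming 2% at each end, and the array medians lay between 163.9 and 176.7. Every pair of arrays differed in each probe set. The leaf gene RCA had signals between 18031 and 26016 on the 18 arrays of the other genotypes, and 23540 on pap1-D array 1 and 23744 on WOX1-1 array 1. The root gene EXPA7 had 12 and 8 there, and the anther genes ATA27 and AT5G07230 had at most 30. Of the 5 leaf, 4 root and 6 flower and anther marker genes, 1, 1 and 2 were measured by name, so most of these lists could not be read. In total RNA of a whole organ, fewer cells of a type and less RNA per cell cannot be told apart. RNA quality was read from the control probe sets. The GAPDH ratio of 3′ to 5′ signal was 3.09 on pap1-D array 1 and 3.17 on WOX1-1 array 1, against 2.52 to 3.23 on the other 22 arrays, and 8 further control measures also lay within the range of the other 22. The 3′ to 5′ ratio of a ubiquitin control was low on some arrays numbered 1 and not on others. Its 5 lowest values among the 24 arrays were 3.00 on MYB12OX array 1, 3.05 on MYB12OX/tt4 array 1, 3.10 on pap1-D array 1, 3.11 on WOX1-1 array 1 and 3.17 on WOX1-2 array 1, and arrays 2 and 3 of these genotypes all lay higher, up to 4.15. It was 3.40 on pap1-D/tt4 array 1, with 3.32 on array 3 of that genotype, 3.67 on tt4 array 1 and 3.90 on Col-0 array 1. The part of this ratio in the members' levels was not tested.

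Few genes of other stress and rhythm lists could be read, 2 of 7 for drought and abscisic acid and 3 of 14 for the clock, and those measured had small differences. LTI30, ORA47 and the member OPCL1, given above, had larger ones. COR15A and COR47, cold and drought response genes, had differences of 0.26 and 0.23 on pap1-D array 1 and -0.21 and 0.19 on WOX1-1 array 1. GI, COR27 and COR28, genes of the clock and of evening hours, had differences between -0.37 and 0.05. The anthocyanin genes DFR, UF3GT and AT5MAT had differences between -0.01 and 0.12, and UGT75C1 had -0.45 and -0.04. Of the 172 genes in 17 lists, 32 were measured with a probe set of 1 gene and 6 of these are members. The lists were chosen with earlier results known, and a difference from arrays 2 and 3 rests on 1 array in each genotype.

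Across the whole table the members' level on pap1-D array 1 and WOX1-1 array 1 departed from the other genotypes, while arrays 2 and 3 of pap1-D and WOX1-1 did not. Relative to its median over the 18 arrays, a member lay at a median of 1.56 on pap1-D array 1 and 1.28 on WOX1-1 array 1 in log2 units. The mean of the other 4 arrays of these genotypes lay at a median of -0.10 (range -0.88 to 0.91), and within 0.5 of zero in 128 of 140 members. The median member signal was 1100 on pap1-D array 1 and 756 on WOX1-1 array 1, against 218 on the other 4 arrays and 272 on the 18 arrays. Both arrays were the highest of all 24 for 99 members, where 2.3% of probe sets above 170 on both had that order. In 118 members pap1-D array 1 lay above all 18 arrays (4.86% of such probe sets), and in 105 WOX1-1 array 1 did (4.5%). The rule used these arrays, so the shares describe the choice.

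**Figure D3:**
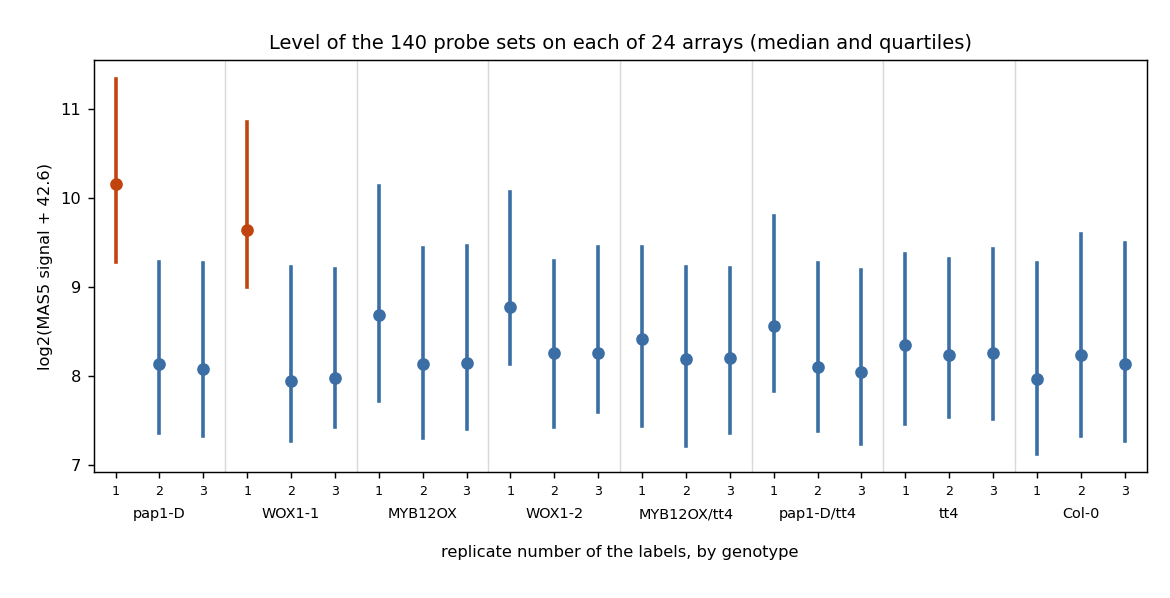
Level of the 140 members on each of the 24 arrays, as log2 of MAS5 signal plus the offset, grouped by genotype and replicate number. Points are medians over members and lines run from the lower to the upper quartile. Red marks array 1 of pap1-D and of WOX1-1, at medians of 10.16 and 9.64, above the medians of all other arrays.

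The same members were also high, by less, on arrays numbered 1 of other genotypes, which the rule did not use. Compared with the mean of arrays 2 and 3, 133 of 140 members were higher on WOX1-2 array 1, 130 on MYB12OX array 1, 120 on pap1-D/tt4 array 1, 103 on MYB12OX/tt4 array 1, 67 on tt4 array 1 and 36 on Col-0 array 1. These are 95.0%, 92.9%, 85.7%, 73.6%, 47.9% and 25.7% of members. Of all probe sets above 170 on the same array, 48.6%, 51.2%, 46.5%, 47.3%, 50.1% and 53.9% were higher, in the same order. The median difference was 0.52 for WOX1-2, 0.42 for MYB12OX, 0.40 for pap1-D/tt4, 0.15 for MYB12OX/tt4, -0.01 for tt4 and -0.21 for Col-0. Among all probe sets the median of the same difference lay between -0.0147 and 0.0149 on these 6 arrays. Median differences were thus highest on WOX1-2 and MYB12OX array 1, while members at least 0.8 above arrays 2 and 3 numbered 37 on pap1-D/tt4 array 1, 35 on WOX1-2 array 1 and 30 on MYB12OX array 1, and the medians on tt4 and Col-0 array 1 were not above 0. The 3′ to 5′ ubiquitin ratio, given above, was low on array 1 of WOX1-2, MYB12OX and MYB12OX/tt4 and not of pap1-D/tt4, tt4 and Col-0. On pap1-D/tt4 array 1 it was 3.40, above array 3 of that genotype at 3.32. The part of the ratio in these differences was not tested.

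The share of large differences that were members varied by array, from 59.6% on WOX1-2 array 1 to 22.9% on pap1-D/tt4 array 1 and 0% on Col-0 array 1. On WOX1-2 array 1, 52 probe sets above 170 (0.463% of such probe sets) lay at least 0.8 above arrays 2 and 3, and 31 of these were members. On MYB12OX array 1 there were 41 (0.358%) of which 23 were members, and on MYB12OX/tt4 array 1 there were 16 (0.142%) of which 6 were members. On pap1-D/tt4 array 1 there were 144 (1.26%) of which 33 were members, and on tt4 array 1 there were 50 (0.439%) of which 9 were. On Col-0 array 1 there were 6 (0.0521%) and none was a member. On pap1-D array 1 and WOX1-1 array 1, where the rule chose the members, there were 195 (1.74%) and 207 (1.83%). Over arrays 2 and 3 of these 6 genotypes together, 0.141% of signals above 170 lay so far above the other arrays of the genotype, and 1 member did, on tt4 array 3.

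**Figure D4:**
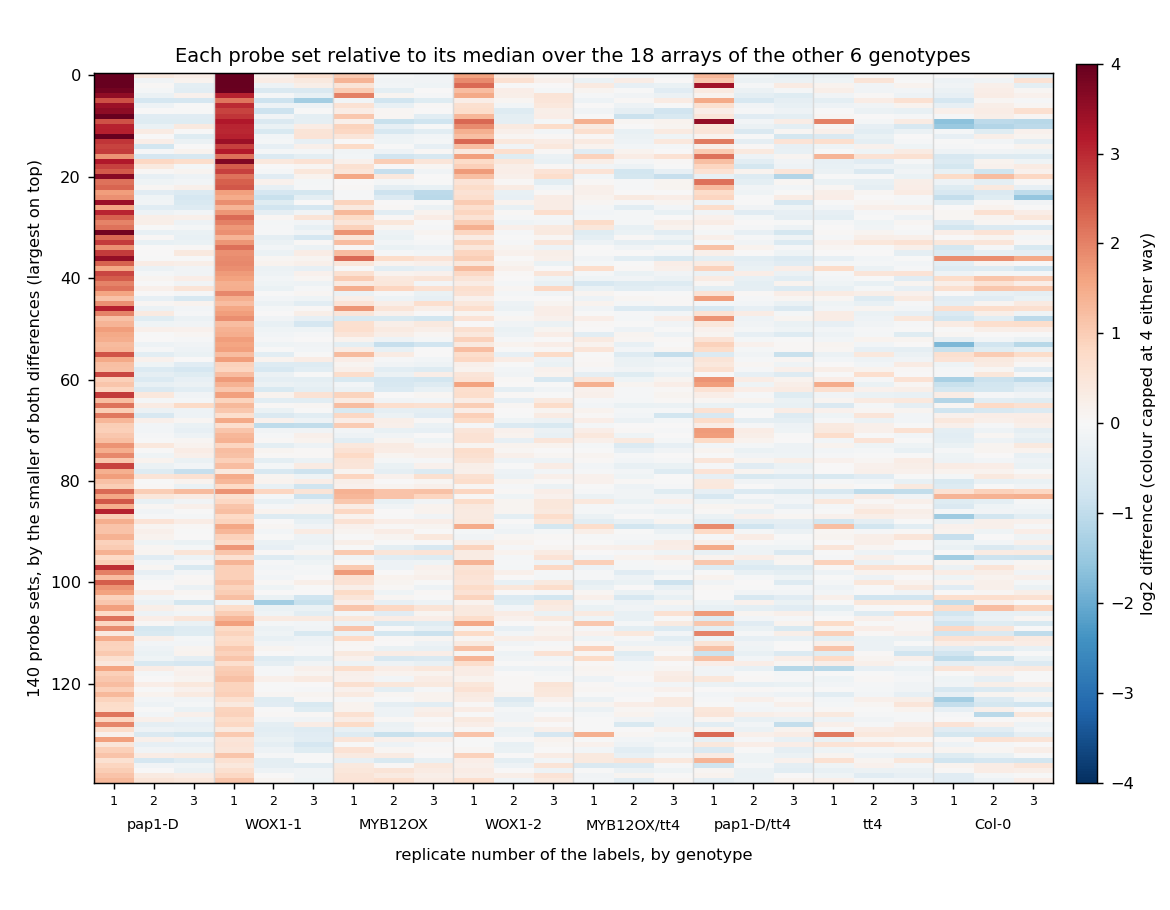
Each row is 1 of the 140 members, sorted from largest to smallest by the smaller of both differences, and each column 1 of the 24 arrays by genotype and replicate number. Colour is log2 of signal plus offset, minus the member's median over the 18 arrays of the other 6 genotypes, capped at 4 in the colours. Red columns are pap1-D array 1 and WOX1-1 array 1, and paler red appears on array 1 of WOX1-2, MYB12OX and pap1-D/tt4.

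The members did not all follow the same secondary arrays. The highest of the 18 arrays was WOX1-2 array 1 for 40 members, MYB12OX array 1 for 39 and pap1-D/tt4 array 1 for 38, which is 117 of 140. These 3 arrays were highest for 13.3% of the probe sets above 170 on both pap1-D array 1 and WOX1-1 array 1. The members that followed MYB12OX array 1 include CML38, STZ, PUB19, PUB22, PUB23 and AT4G29780. In this subset the median difference was 2.23 on pap1-D array 1 and 1.16 on WOX1-1 array 1, and the pap1-D one was larger in 34 of 39. The members that followed pap1-D/tt4 array 1 include AT1G15010, AT5G62360, XTH18, OPCL1, AT2G34930 and AT4G36010. Here the medians were 1.48 on pap1-D array 1 and 1.57 on WOX1-1 array 1, and the pap1-D difference was larger in 10 of 38. For the 40 members that followed WOX1-2 array 1 the medians were 1.77 and 1.73.

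Beyond the arrays that chose them, the members also varied together. After subtracting each genotype's mean, pairs of tested members correlated with a median r of 0.44 over the 18 arrays, and 41.6% of pairs exceeded 0.5. For all tested probe sets the median r was 0.00 and 5.49% of pairs exceeded 0.5. The points share their arrays. Over the 12 arrays numbered 2 or 3 the median r was 0.07 for members and 0.00 for all, with 17.9% and 13.3% of pairs over 0.5.

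The remaining tests compare genotypes on the 18 arrays the rule did not use, in 1 limma fit of all 14786 probe sets that passed the filter on low signals. Of the 140 members 132 were tested, including 64 named ones, and 8 were too dim there, among them AT3G01830, AT2G17660, AT4G27654 and AT1G22810. Of the 132, 80 (60.6%) passed in at least 1 of 7 comparisons, beside 47.8% of all tested probe sets, and 52 passed in none. The comparisons with Col-0 share the Col-0 arrays.

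**Figure D5:**
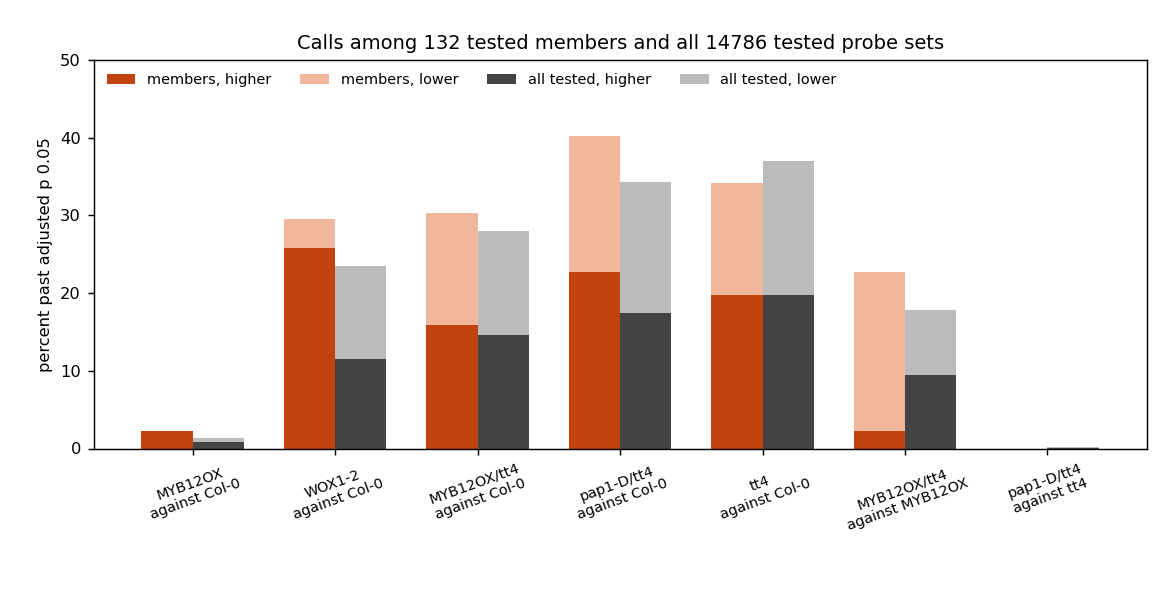
Percentage of the 132 tested members (left bar of each pair) and of all 14786 tested probe sets (right bar) past an adjusted p of 0.05 in limma, for each of 7 comparisons of the 18 arrays. The darker part is higher and the paler part lower in the genotype named first. Members called run from 0 in pap1-D/tt4 against tt4 to 53 in pap1-D/tt4 against Col-0.

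Against Col-0, 3 of 132 members passed in MYB12OX, all higher, which is 2.27% of members beside 1.35% of all tested probe sets (0.825% higher and 0.521% lower). That count was 0 without Col-0 array 1 or MYB12OX array 3, 1 without Col-0 array 2 and 7 without Col-0 array 3. All probe sets called were 48 without Col-0 array 1 and 242 without Col-0 array 3. In WOX1-2, 39 members passed, 34 higher and 5 lower, which is 29.5% beside 23.5% (11.5% higher and 12% lower). Without Col-0 array 1, 23 members passed, and 24 passed without WOX1-2 array 1. The probe sets called in all also fell, from 3477 to between 2518 and 3140 with 1 array of the pair left out. In MYB12OX/tt4, 40 passed, 21 higher and 19 lower, which is 30.3% beside 28% (14.5% higher and 13.4% lower). Without MYB12OX/tt4 array 3, 26 members passed, and the probe sets called in all fell from 4138 to 3039. In pap1-D/tt4, 53 passed, 30 higher and 23 lower, which is 40.2% beside 34.3% (17.5% higher and 16.9% lower). In tt4, 45 passed, 26 higher and 19 lower, which is 34.1% beside 37% (19.7% higher and 17.3% lower). In this fit, which has no term for the replicate number, the counts in the 3 genotypes with tt4 lie near these shares. The larger counts with such a term, where members passed against Col-0 at larger shares than all probe sets, are given at the end. The median member difference was 0.20 in MYB12OX, 0.27 in WOX1-2, 0.04 in MYB12OX/tt4 plants, 0.07 in pap1-D/tt4 plants and 0.09 in tt4, where the medians of all tested probe sets lay between -0.02 and 0.02. In all 3 genotypes with tt4, 15 members were higher and 12 lower than Col-0, against 11.8% and 10.9% of all tested probe sets.

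Loss of CHS in the MYB12 overexpressor, MYB12OX/tt4 against MYB12OX, gave 30 members past the test, 3 higher and 27 lower. That is 22.7% of members beside 17.8% of all tested probe sets, with 9.43% of all higher and 8.35% lower. The median member difference was -0.23, and 0.02 over all. Array 1 of MYB12OX stood high for many members, as given above, and leaving it out left 18 members called, as did MYB12OX/tt4 array 2, with 19 without MYB12OX/tt4 array 3. Probe sets called in all fell as well, from 2630 to between 1584 and 2478 with 1 array of the pair left out. In pap1-D/tt4 against tt4, 0 members passed in limma, beside 0.142% of probe sets (0.128% higher and 0.0135% lower), and 8 members (6.06%) had an unadjusted p under 0.05, beside 5.57% of all tested probe sets.

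AT2G27080, the NHL13 gene, was higher than Col-0 in each of the other 5 genotypes. Its signals were 533, 200 and 262 in MYB12OX, 1088, 351 and 467 in WOX1-2, 348, 268 and 288 in MYB12OX/tt4 plants, 375, 217 and 193 in pap1-D/tt4 plants and 284, 204 and 156 in tt4, against 67.3, 94.2 and 106 in Col-0. No array of a mutant or overexpressor reached down to the Col-0 values. The log2 difference was 2.22 ± 0.33 (SE, n = 3 against 3) in WOX1-2 with a limma adjusted p of 6.11e-05, 1.42 in MYB12OX with 0.0367, and 1.39 in MYB12OX/tt4 with 0.00356. In pap1-D/tt4 it was 1.17 with 0.00942 and in tt4 0.95 with 0.0299. The MYB12OX call was lost, with adjusted p between 0.0899 and 0.202, without Col-0 array 1 or 2 or MYB12OX array 1 or 3.

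AT1G19380 and XTH18 also rose in several genotypes. AT1G19380, a gene of unknown function, averaged 1905 ± 420 in WOX1-2, 1675 ± 225 in MYB12OX/tt4 plants, 1753 ± 89.0 in pap1-D/tt4 plants, 1630 ± 141 in tt4 and 1209 ± 184 in MYB12OX, against 753 ± 161 in Col-0 (SD, n = 3 each). Its log2 differences from Col-0 were 1.29 (adjusted p 6.75e-06) in WOX1-2, 1.12 (2.49e-05) in MYB12OX/tt4 plants, 1.19 (8.52e-06) in pap1-D/tt4 plants and 1.09 (2.19e-05) in tt4 by limma. In MYB12OX it was 0.66 (0.0377), which was lost without Col-0 array 1 or any MYB12OX array, with adjusted p between 0.0787 and 0.259. XTH18 had 285, 123 and 212 in WOX1-2, 184, 223 and 206 in MYB12OX/tt4 plants, 331, 162 and 212 in pap1-D/tt4 plants and 204, 165 and 159 in tt4, against 64.0, 106 and 28.2 in Col-0. All 12 of these arrays lay above the 3 Col-0 arrays. At the Col-0 values of 64.0 and 28.2 signal and background cannot be told apart, so the sizes of the differences are uncertain. The differences were 1.21, 1.25, 1.38 and 1.07 in the same order of genotypes, with limma adjusted p of 0.00399, 0.00263, 0.000906 and 0.00603.

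Other members were higher with pap1-D/tt4 or tt4 than with Col-0, often carried by 1 array. AT1G15010 was higher than Col-0 by 2.49 ± 0.77 (SE) in pap1-D/tt4 (adjusted p 0.0173) and by 2.02 in tt4 (0.0469), with the signals given above. Its pap1-D/tt4 call was lost without pap1-D/tt4 array 1 (difference 1.35, adjusted p 0.114) or Col-0 array 1 (0.0605), and its tt4 call was lost without tt4 array 1 (1.39, 0.209), tt4 array 3 or any Col-0 array. AT5G62360 was higher by 1.50 in pap1-D/tt4 and 1.53 in tt4, with adjusted p of 0.035 and 0.0293. It had 12252, 2949 and 3155 in pap1-D/tt4 and 10856, 3409 and 3307 in tt4, against 1529, 1591 and 1976 in Col-0. The array numbered 1 was the highest in both mutant genotypes, and without it the adjusted p was 0.205 in pap1-D/tt4 and 0.173 in tt4. Leaving out any single Col-0 array also lost the pap1-D/tt4 call, and the tt4 call was lost without Col-0 array 1 or 2. AT4G32800, an AP2/ERF gene, was higher by 1.52 in pap1-D/tt4 (adjusted p 0.00386, 0.000864 to 0.0169 with 1 array left out) and by 1.18 in tt4 (0.018, lost without tt4 array 1 at 0.0949 or Col-0 array 3 at 0.0597). AT2G34930, a leucine-rich repeat gene, was higher by 1.30 in pap1-D/tt4 (0.00523), at 342 ± 308 against 87.3 ± 26.6 in Col-0, and by 0.68 (0.0141) without pap1-D/tt4 array 1. The AT4G32800 difference in pap1-D/tt4 was 0.88 (0.0157) without the same array.

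Several named members were lower in genotypes with tt4, where the 12 members lower in all 3 genotypes are near the share of all probe sets given above. AT4G29780 had 310, 192 and 161 in MYB12OX/tt4 plants, 272, 228 and 129 in pap1-D/tt4 plants and 335, 340 and 277 in tt4, against 605, 856 and 637 in Col-0, with no overlap. Its differences were -1.52, -1.59 and -1.03, with limma adjusted p of 0.00126, 0.000663 and 0.0148, the last of which was lost without Col-0 array 2 or tt4 array 3. Against MYB12OX, MYB12OX/tt4 was lower, with a difference of -1.24 (adjusted p 0.01), where MYB12OX had 1076, 475 and 343, and -0.80 (0.0712) without MYB12OX array 1 and -1.08 (0.0593) without MYB12OX/tt4 array 3. AT1G66090, a TIR-NBS gene, averaged 154 ± 9.63 in MYB12OX/tt4 plants, 132 ± 9.47 in pap1-D/tt4 plants, 167 ± 30.1 in tt4 and 222 ± 49.1 in WOX1-2, against 401 ± 81.1 in Col-0 (SD, n = 3 each). Its differences were -1.16, -1.33, -1.08 and -0.75, and it kept its call in all of these with any 1 array left out. AT4G24380, a serine hydrolase gene, averaged 257 ± 7.55 in MYB12OX/tt4 plants, 276 ± 92.9 in pap1-D/tt4 plants, 258 ± 47.0 in tt4 and 333 ± 94.5 in WOX1-2, against 618 ± 81.2 in Col-0, and it too kept its call in each. The same 2 genes were high on pap1-D array 1, at 662 and 1790, where arrays 2 and 3 had 221 and 201 for AT1G66090 and 322 and 370 for AT4G24380.

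PUB19, the ubiquitin ligase gene, averaged 43.0 ± 28.2 in pap1-D/tt4 and 39.8 ± 24.3 in tt4, against 114 ± 11.8 in Col-0, with differences of -0.93 (limma adjusted p 0.00541) and -0.97 (0.00366). Without a detection call, signal and background cannot be told apart at the PUB19 means of pap1-D/tt4 and tt4, so the sizes are uncertain. AT1G32920, which had no match in RefSeq, averaged 1886 ± 239 in MYB12OX/tt4 plants, 1799 ± 108 in pap1-D/tt4 plants and 1751 ± 97.9 in tt4, against 3183 ± 340 in Col-0, with differences of -0.74, -0.80 and -0.84. AT1G78070, a WD40-repeat gene, was lower, with differences of -1.01 in pap1-D/tt4 and -1.10 in tt4 (adjusted p 0.0225 and 0.0127), and both calls were lost with some single arrays left out, at up to 0.0828 and 0.0608. AT3G04640, a glycine-rich protein gene, averaged 735 ± 47.9 in MYB12OX/tt4, against 1583 ± 420 in MYB12OX, a difference of -1.04 (0.00169). AT2G42760 was lower in MYB12OX/tt4, with differences of -0.93 against Col-0 and -0.80 against MYB12OX (0.000601 and 0.00386). Of 54 calls of named genes listed for these comparisons, 34 held with each array of the pair of genotypes left out in turn and 20 did not. Of the same 54 calls, 23 held in a fit of all 24 arrays and 42 without the filter on low signals.

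The other named calls follow. In WOX1-2 against Col-0, AT1G74450 rose by 1.26 (adjusted p 0.00124, at most 0.0077 with 1 array left out), AT1G11960 by 1.17 (0.0307) and AT1G56660 by 1.15 (0.0324). AT1G11960, an OSCA-type calcium channel relative, was also higher in MYB12OX/tt4 by 1.09 (0.0381), and it lost both calls without Col-0 array 1, as AT1G56660 did, with adjusted p of 0.0762 to 0.111, and without further single arrays at up to 0.191. In MYB12OX/tt4, AT5G28630 rose by 1.06 (5.12e-05, at most 0.000571 with 1 array left out), AT4G35985 by 0.93 (0.031, lost without 5 of the 6 arrays in turn, at up to 0.127) and DTX50 (AT5G52050) was lower, with a difference of -0.81 (0.0162, lost without MYB12OX/tt4 array 3 at 0.0946 or Col-0 array 3 at 0.0722). In tt4, AT5G17850, a cation exchanger gene, rose by 1.09 (0.0317), at 372 ± 116 against 153 ± 58.4 in Col-0, lost without 4 of the 6 arrays in turn, at up to 0.125. Against MYB12OX, MYB12OX/tt4 was higher in AT1G78280 by 0.45 (0.0162) and in AT1G19380 by 0.46 (0.0474), and lower in AT5G58120, with a difference of -0.67 (0.0278), each lost with at least 2 of the 6 arrays left out in turn.

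The 5 other listed members did not pass in any of the 7 comparisons: CML38, STZ, PUB22, PUB23 and WRKY53. CML38 was 0.72 above Col-0 in WOX1-2 (adjusted p 0.2) and 0.66 in MYB12OX (0.511), with MYB12OX array 1 and WOX1-2 array 1 holding the high values. STZ differed by -0.65 from Col-0 in MYB12OX/tt4 (0.0851) and by -0.69 from MYB12OX (0.0899). The number of arrays, 3 a genotype, limits what these comparisons can show.

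A last comparison, chosen after the peaks of arrays numbered 1 had been seen, set arrays numbered 1 against arrays numbered 2 and 3 within the 6 genotypes. In limma, 17 members passed, all higher, which is 12.9% of the 132 tested beside 1.28% of all tested probe sets and 0.615% higher (0.663% lower). The median member difference was 0.25, positive in 114 of 132, against -0.01 over all. The called genes include AT1G15010 at 1.60 ± 0.30 (SE, adjusted p 0.0186), AT1G51090 at 1.29 (0.0133), AT5G62360 at 1.13 (0.0133), AT2G23120 at 0.81 (0.0105), AT2G27080 at 0.61 (0.0488) and PUB23 at 0.46 (0.0269). AT2G23120 had 10109 on array 1 against 4402 and 4635 on arrays 2 and 3 in WOX1-2, 8424 against 4843 and 4812 in MYB12OX/tt4 plants, 10196 against 3972 and 4524 in pap1-D/tt4 plants and 9816 against 3770 and 3507 in tt4, while Col-0 array 1 had 3223 against 3123 and 3629. Leaving out tt4 array 1 left 0 members called, WOX1-2 array 1 left 5, pap1-D/tt4 array 1 left 7, and leaving out Col-0 array 1 left 32. The probe sets called in all were 8 without tt4 array 1 and 196 without Col-0 array 1.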

How the data were processed

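The 24 columns of the deposited table hold linear signal intensities that the authors made with MAS5, per the submitters' processing notes; its version and the probe set definition were not given in the sources used here. In all, the table has 22810 probe sets, 64 of them controls, and 1 signal per probe set without a detection call. Before log2, 42.6 was added to every signal as an offset, which understates the change of dim probe sets. Members and gene lists were chosen with earlier results of these data known.

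Tests used R 4.3.3 with limma 3.58.1 (two-sided, with lmFit, contrasts.fit and an eBayes trend) on the 18 arrays of the 6 genotypes the rule did not use, with 1 mean per genotype and 12 residual degrees of freedom. Probe sets above 85.2 on at least 3 of the 18 arrays entered, and p-values were adjusted by Benjamini-Hochberg over 14786 probe sets at a threshold of 0.05. The test was checked on simulated data. Named genes are the members in a gene list, the 12 named members with the largest smaller difference, and up to 6 named members per direction of each comparison that passed, with 3 named genes just inside and 3 just outside the threshold. The comparison of arrays numbered 1 with the others was chosen after seeing the data, and the genes named from it, and any other named member outside this rule, were chosen after their values were seen. Names came from the platform annotation, updated through RefSeq of TAIR10.1; coordinates are not printed. Alternatives were another offset, no filter, quantile normalization, all 24 arrays, a replicate block, the place in the sample listing, and each array left out. The number of arrays limits the precision. Promoter sequences were not used here.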

Additional observations from a re-analysis of the deposited data

How the results depend on the processing

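Another offset (16) and quantile normalization kept every count of members and of probe sets within 1.5 times. The rule found 153 probe sets with an offset of 16 (140 shared), 141 after quantile normalization (139 shared) and 99 with a difference of at least 1. In MYB12OX against Col-0 the 3 members and 199 probe sets became 0 and 125 without the filter, and 121 probe sets without the arrays numbered 1, a setting chosen after seeing the data. With all 24 arrays in the fit, where pap1-D and WOX1-1 enter the spread, members called against Col-0 were 0 in MYB12OX, 9 in WOX1-2, 10 and 24 in MYB12OX/tt4 and pap1-D/tt4, and 22 in tt4, and 6 in MYB12OX/tt4 against MYB12OX (18 without the filter), while 150, 3446, 4125, 5076, 5449 and 2603 probe sets were called. For arrays numbered 1 against the others, 4 members and 22 probe sets were called without the filter.

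The replicate numbers were not taken as a pairing, since in 0 of 7 comparisons every same-numbered pair correlated over 0.1. Same-numbered arrays had a median r of 0.076 (45 pairs, -0.14 to 0.28, 16 over 0.1) and differently numbered ones -0.049 (90 pairs), and 12 of 18 arrays were closest to their own number, a hint from the data and not the design. With the number as a replicate block, members called of 132 tested were 8, 47, 54, 66 and 56 against Col-0 in MYB12OX, WOX1-2, MYB12OX/tt4, pap1-D/tt4 and tt4. They were 41 in MYB12OX/tt4 against MYB12OX and 0 in pap1-D/tt4 against tt4. Probe sets called of 14786 tested were 342, 3715, 4387, 5309, 5676, 2922 and 28 in the same order. The share called was larger among members than among all probe sets in each comparison except pap1-D/tt4 against tt4.

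The place in the listing, which rises with the genotypes by construction, left 1 member and 7 probe sets in MYB12OX, and 0 members with 11 probe sets in WOX1-2, 11 and 10 in MYB12OX/tt4 and pap1-D/tt4, 21 in tt4 and 17 in MYB12OX/tt4 against MYB12OX, while pap1-D/tt4 against tt4 had 44 probe sets. With 1 mean per genotype, the slope of place rests only on the order of arrays 1 to 3 within genotypes and is then extended across genotypes. This setting thus cannot decide whether a call holds. In it 20 differences changed sign, none past the threshold, and the values that follow are extrapolated rather than measured differences. AT4G24380 was 1.23 in WOX1-2, 1.45 and 2.02 in MYB12OX/tt4 and pap1-D/tt4, 2.48 in tt4 and 1.24 against MYB12OX. AT4G29780 was 3.33 and 4.22 in MYB12OX/tt4 and pap1-D/tt4, 5.75 in tt4 and 2.63 against MYB12OX. AT1G32920 was 0.48, 0.66 and 0.87, AT1G78070 was 5.14 and 6.08, PUB19 was 0.63 and 0.85, AT1G19380 was -0.025, -0.33 and -0.35, and AT5G52050 was 1.33.

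With 1 array left out, members called ran from 0 to 7 in MYB12OX, 23 to 43 in WOX1-2, 26 to 33 and 42 to 59 in MYB12OX/tt4 and pap1-D/tt4, 34 to 41 in tt4, 18 to 32 in MYB12OX/tt4 against MYB12OX, 0 to 0 in pap1-D/tt4 against tt4 and 0 to 32 for arrays numbered 1. Probe sets ran from 48 to 242, 2518 to 3140, 3039 to 3886, 4103 to 4873, 4505 to 5024, 1584 to 2478, 14 to 20 and 8 to 196 in the same order. Signals near background and 3 arrays a genotype limit the dim members.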
